A study of Ovis aries with 3 samples.

Results

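The known sheep miRNAs oar-miR-150 and oar-miR-181a were followed through the small RNA libraries of 3 intestinal segments. They were taken by name, as the rows beginning with oar-miR-150 or oar-miR-181a, and these were 2 of 822 entries in the count files and 2 of the 146 known sheep miRNAs among them. The libraries are named DU for duodenum, CE for cecum, and CO for proximal colon, and came from Small tailed Han sheep. The sampled material was labelled as mucosal epithelial tissue, and the ewes were aged 11 months, with no treatment given in the labels. RNA of the same 3 ewes was pooled for every segment, which left 1 library for each segment, without replicates. Tests and intervals therefore describe the sampling of reads in these libraries and not the spread between animals.

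A miRNA guides a silencing complex to messenger RNAs that pair with its seed, the bases 2 to 8 from its 5′ end. miR-150 is abundant in mature B and T lymphocytes and is known for restraining the transcription factor MYB during lymphocyte development. miR-181a is high in developing thymocytes, where it sets the strength of antigen receptor signalling, and in early B-lineage cells. It is also expressed in many tissues without lymphocytes. The gut wall holds lymphocytes between the epithelial cells, in the lamina propria, and in lymphoid follicles.

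The mature sequences are shown because the seed sets the family of each miRNA. They are written 5′ to 3′ with T as in the count files, and capitals mark the seed.
oar-miR-150: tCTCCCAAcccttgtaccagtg
oar-miR-181a: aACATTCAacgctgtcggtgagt
novel_mir_87: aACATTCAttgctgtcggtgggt
novel_mir_115: aACATTCAttgttgtcggtgggt
novel_mir_424: aACATTCAacctgtcggtgagt
The seed of oar-miR-150 was found in 1 entry, oar-miR-150 itself. The seed of oar-miR-181a was shared by 4 entries, of which 3 had reads. By their sequences, novel_mir_87 was linked to miR-181b, novel_mir_115 to miR-181d, and novel_mir_424 to miR-181c. Counted from 1 at the 5′ end, novel_mir_87 differed from oar-miR-181a by A9T, C10T, and A21G. novel_mir_115 had the same changes and C12T in addition. No other entry contained, was contained in, or overlapped the sequence of either miRNA by at least 16 bases, so the reads of these 2 miRNAs were not divided among longer and shorter entries. In the RefSeq annotation of the ARS-UI_Ramb assembly, miR-181a has 2 genes, MIR181A-1, with NR5A2 as a neighbouring protein-coding gene, and MIR181A-2 within NR6A1. Both give the same mature miRNA, so its reads cannot be assigned to either gene.

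The counts added up to between 13769740 and 15072945 reads per library, or 83.1% to 88.6% of the clean reads mapped to the genome. Levels are given as normalized reads, the counts per 1000000 mapped clean reads, and 3 reads correspond to 0.176 to 0.181 normalized reads. oar-miR-143 alone took 31.9% of the counts in DU, 48.4% in CE, and 48.0% in CO. The normalized reads of other miRNAs depend on this share, so ratios that do not depend on the library size are given as well. Pairs of libraries were compared by the exact Audic-Claverie test, which was run on every entry that reached 1 normalized read in at least 1 of the pair. An entry was called differentially expressed when its p-value, multiplied by the number of entries tested (Bonferroni), was under 0.01 and its levels differed at least 2-fold.

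oar-miR-150 was highest in the duodenum. It had 4837 reads in DU, 2532 in CE, and 2896 in CO. As normalized reads, its level was 289 in DU (exact Poisson 95% interval 281 to 297), 149 in CE (143 to 155), and 175 in CO (168 to 181). The intervals of the 3 libraries did not overlap. The log2 ratio of CE to DU was -0.96 (exact 95% interval -1.03 to -0.89), a fold change of 1.94 (corrected p = 4.34e-167, exact Audic-Claverie test). The log2 ratio of CO to DU was -0.73 (-0.79 to -0.66), a fold change of 1.65 (corrected p = 2.38e-102, exact Audic-Claverie test). Between the large intestine libraries, the CO library was higher by a fold change of 1.17, with a log2 ratio of CE to CO of -0.23 (-0.31 to -0.15; corrected p = 1.16e-06, exact Audic-Claverie test). The corrected p-value was under 0.01 in all 3 comparisons, but the fold change stayed below 2 in each, so oar-miR-150 was not differentially expressed by both criteria. The interval of CE to DU reached past a log2 ratio of -1, so this miRNA lay at the limit of the fold change.

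oar-miR-181a had more reads than oar-miR-150 in every library and differed less between them. It had 17620 reads in DU, 14532 in CE, and 13573 in CO. As normalized reads, its level was 1053 in DU (1037 to 1069), 855 in CE (841 to 869), and 819 in CO (806 to 833). The DU library was highest, and the intervals of the CE and CO libraries did not overlap but lay next to each other. The log2 ratio of CE to DU was -0.30 (-0.33 to -0.27), a fold change of 1.23 (corrected p = 2.61e-75, exact Audic-Claverie test), and this direction turned (0.043) when the reads of oar-miR-143 were left out of the library size. For CO to DU, it was -0.36 (-0.39 to -0.33), a fold change of 1.29 (corrected p = 2.49e-105, exact Audic-Claverie test). The log2 ratio of CE to CO was 0.06 (0.03 to 0.09), and it did not pass the correction over all entries (corrected p = 0.137, exact Audic-Claverie test). oar-miR-181a was thus not differentially expressed in any comparison.

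**Figure D1:**
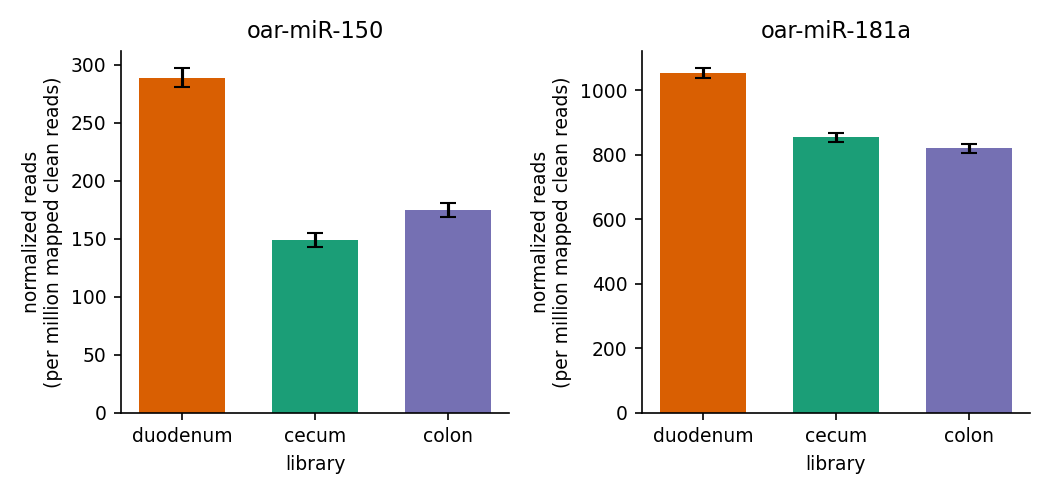
Normalized reads (y axis, counts per 1000000 mapped clean reads, from 0) of oar-miR-150 (left) and oar-miR-181a (right) in the 3 libraries (x axis). Bars are the value of the 1 library per segment and error bars are exact Poisson 95% intervals for counting error only. oar-miR-150 goes from 289 in the duodenum to 149 in the cecum and 175 in the colon, and oar-miR-181a from 1053 to 855 and 819.

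At this depth, a corrected p-value under 0.01 alone was common. It was reached by 68.1% of the 348 entries tested between the DU and CE libraries, 63.9% of the 363 between DU and CO, and 51.8% of the 326 between CO and CE. By direction, 42.5% of the entries tested passed with the higher level in DU against CE and 37.5% in DU against CO, which both miRNAs did, and 26.4% passed with the higher level in CO against CE, which oar-miR-150 did. Both criteria together were met by 36.5%, 33.9%, and 22.7% of the entries tested, and by 11.8%, 6.38%, and 2.13% of the known miRNAs tested. Neither oar-miR-150 nor oar-miR-181a was among them. Among the 93 known miRNAs tested between DU and CE, 12 had a larger change than oar-miR-150 in either direction, but only 2 had a lower ratio of CE to DU. Between DU and CO, 17 of 94 known miRNAs had a larger change, and oar-miR-150 had the 4th lowest ratio. For oar-miR-181a, 67 of 93 and 60 of 94 known miRNAs changed more. The median log2 ratio of the known miRNAs tested was 0.27 for CE to DU and 0.22 for CO to DU, so that both miRNAs moved opposite to the middle of the known miRNAs, which were higher in the large intestine. The median over all entries tested was -0.31 and -0.19, on the same side as both miRNAs, and leaving oar-miR-143 out of the library size shifted every ratio by 0.344 and 0.271, past these medians.

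A total of 74 known miRNAs had at least 100 reads in every library, and 28 of these were lower in the CE and the CO library than in the DU library. By the known entries alone, none of the others was as low as oar-miR-150 in both ratios, whereas 17 were at least as low as oar-miR-181a. For 6 of the 74, predicted entries held a contained or overlapping sequence with reads. With these reads added, an alternative chosen after the data were seen, oar-miR-194 had log2 ratios of -2.04 and -1.43 and was the 1 miRNA lower than oar-miR-150 in both. Over the log2 ratios of CE to DU and CO to DU, the known entry with the pattern most like oar-miR-150 was oar-miR-194 (distance of 0.187, log2 ratios of -1.09 and -0.59). oar-miR-194 is known from differentiated enterocytes. It was followed by oar-miR-29b (0.265) and oar-miR-29a (0.304), and with the predicted entries added, these came first and oar-miR-194 was no longer among the nearest 3. The patterns most like that of oar-miR-181a were those of oar-miR-19b (0.0250), oar-miR-16b (0.0763), and oar-miR-99a (0.0828). These distances rest on 3 libraries, and both ratios share the DU library.

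**Figure D2:**
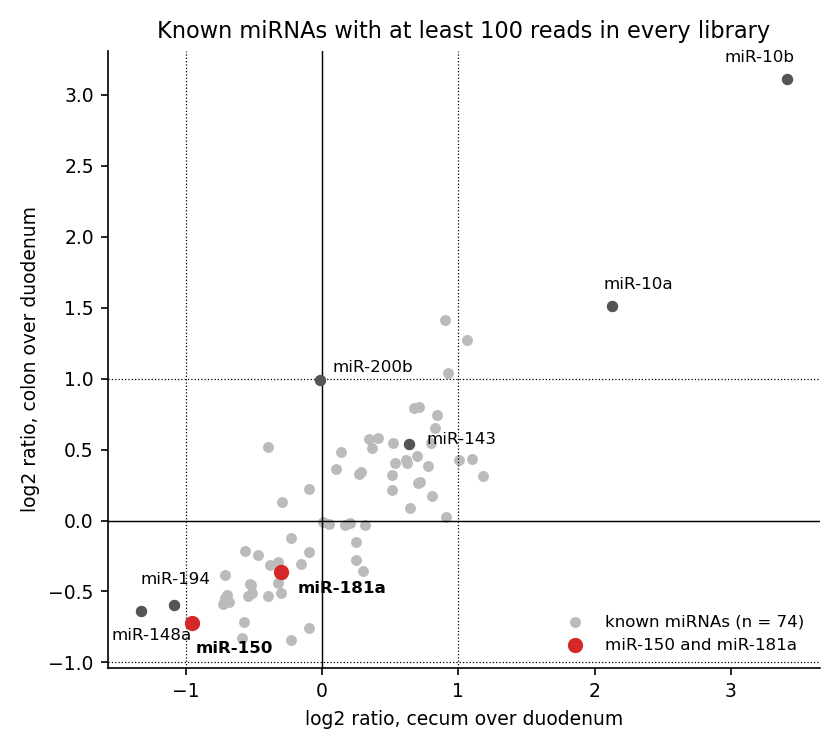
Log2 ratio of CE to DU (x axis) against log2 ratio of CO to DU (y axis) for the 74 known miRNAs with at least 100 reads in every library, 1 point per miRNA, with a fold change of 2 marked by dotted lines. oar-miR-150 (-0.96 and -0.73) lies at the lower left edge beside the known entry of oar-miR-194, and oar-miR-181a (-0.30 and -0.36) lies nearer the centre.

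The 2 miRNAs changed to different degrees. Of the reads of both together, oar-miR-150 made up 21.5% in DU (Wilson 95% interval 21.0 to 22.1%), 14.8% in CE (14.3 to 15.4%), and 17.6% in CO (17.0 to 18.2%). This share does not depend on the library size, and none of the 3 intervals overlapped.

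Within the miR-181 seed family, the members also differed in direction. The miR-181b entry novel_mir_87 had 2676 reads in DU, 2599 in CE, and 2500 in CO, or 160, 153, and 151 normalized reads. Its log2 ratios of CE to DU and CO to DU were -0.07 (-0.14 to 0.01) and -0.08 (-0.16 to -0.0045), with corrected p-values of 1 (exact Audic-Claverie test), both smaller in size than the shifts of 0.125 and 0.157 that the TMM library size of edgeR brought. The miR-181d entry novel_mir_115 had 292, 437, and 408 reads, or 17.4, 25.7, and 24.6 normalized reads. It was lowest in the DU library, opposite to oar-miR-181a as normalized to the mapped clean reads. Its log2 ratio was 0.56 (0.34 to 0.78) for CE to DU (corrected p = 9.90e-05) and 0.50 (0.28 to 0.72) for CO to DU (corrected p = 0.00261, exact Audic-Claverie test), below a fold change of 2 in both. Among all entries tested, 25.6% passed with the higher level in CE against DU and 26.4% with the higher level in CO against DU. The miR-181c entry novel_mir_424 was listed at 0 in every library.

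oar-miR-181a held most of the reads with this seed. Its share was 85.6% in DU (85.1 to 86.1%), 82.7% in CE (82.2 to 83.3%), and 82.4% in CO (81.8 to 82.9%). The share of novel_mir_87 was 13.0% in DU (12.5 to 13.5%), 14.8% in CE (14.3 to 15.3%), and 15.2% in CO (14.6 to 15.7%). That of novel_mir_115 was 1.42% (1.27 to 1.59%), 2.49% (2.27 to 2.73%), and 2.48% (2.25 to 2.72%). Both shares were lower in the duodenum than in the large intestine, and their intervals for CE and CO overlapped.

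**Figure D3:**
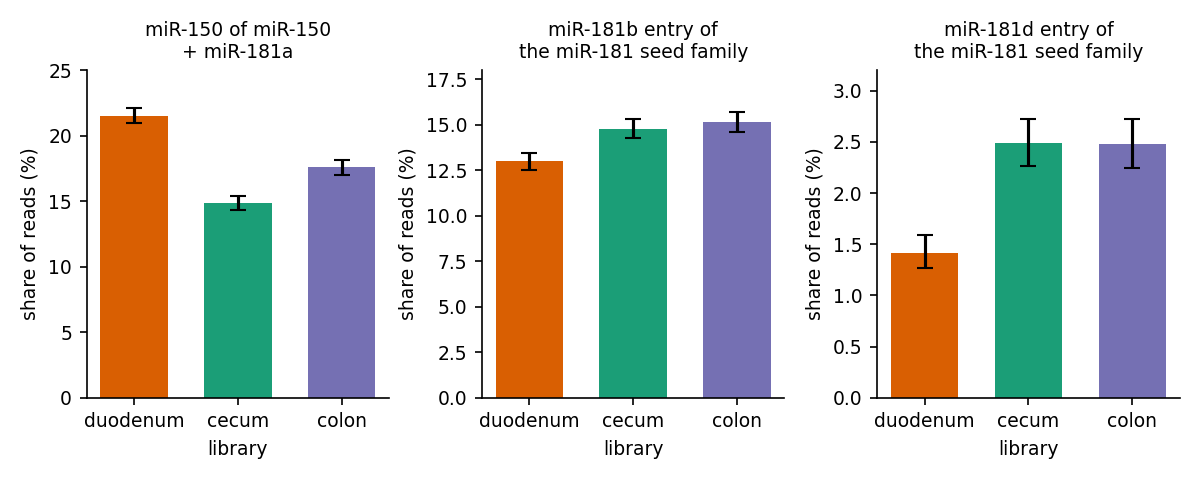
Share of reads in percent (y axis, from 0, a different range in each panel) in the 3 libraries (x axis), with Wilson 95% intervals for counting error as error bars. The share of miR-150 in the reads of miR-150 and miR-181a (left) is highest in the duodenum at 21.5%, while the shares of the miR-181b entry (middle, 13.0%) and the miR-181d entry (right, 1.42%) in the seed family are lowest there.

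Other miR-181 miRNAs, mainly from the other arm of the hairpins, were looked for by the sequences of 5 miRNAs, and an entry was found for 1 of them, miR-181c-3p. Its reads were listed under different lengths of the same sequence, with bases 2 to 8 in capitals.
novel_mir_511: aCCATCGAccgttgagtggacc
novel_mir_575: aCCATCGAccgttgagtggac
novel_mir_511 had 96 reads in DU, 0 in CE, and 121 in CO. novel_mir_575, which lacks the last base, had 0, 110, and 0 reads. Added up, they made 5.74, 6.47, and 7.30 normalized reads, and the log2 ratio of CE to DU was 0.17 (-0.24 to 0.58; corrected p = 1, exact Audic-Claverie test). Taken alone, novel_mir_511 was called higher in the DU library than in the CE library. A 0 in a predicted entry can thus stand for reads listed under another entry. Of the 676 predicted entries, 37 had 0 reads in a library and at least 100 in another, compared with 0 of the 146 known miRNAs.

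Of 8 miRNAs known from white blood cells, 4 were linked to predicted entries by identical or contained sequence. They are shown to make clear which sequences were counted, and the first 2 share a seed.
novel_mir_114: tGAGAACTgaattccataggt
novel_mir_246: tGAGAACTgaattccataggctg
novel_mir_29: tTAATGCTaatcgtgataggggt
novel_mir_225: tCTCACACagaaatcgcacccatc
novel_mir_114 is miR-146a and novel_mir_246 is miR-146b, which damp inflammatory signalling and differ within the shorter sequence by T21C. novel_mir_29 is miR-155, which is induced in activated lymphocytes and macrophages, and novel_mir_225 is miR-342, found in lymphocytes and other white blood cells. No entry of the count files was linked to miR-142-3p, miR-223, or miR-223-5p. Their sequences are in the study's supplement of identified miRNAs, so a missing entry does not mean that a miRNA was undetected. The list was chosen with results of these data known and is no independent evidence of a direction.

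All 4 had their highest normalized reads in the DU library, although the ratio of CE to DU of miR-342 (-0.18) was smaller in size than the shift of 0.344 without oar-miR-143. miR-146a had 824 normalized reads in DU, 333 in CE, and 292 in CO, with log2 ratios of -1.31 for CE to DU and -1.50 for CO to DU. miR-146b had 1440, 841, and 486, with log2 ratios of -0.78 and -1.57. miR-155 had 606, 322, and 444 normalized reads and, like miR-150, was lowest in the cecum. Its log2 ratios were -0.91 (-0.96 to -0.86) and -0.45 (-0.49 to -0.41). miR-342 had 114, 101, and 80.2, with log2 ratios of -0.18 and -0.51, and between DU and CE it did not pass the correction (corrected p = 0.0600, exact Audic-Claverie test). The corrected p-value alone was passed, with the higher level in DU, by 3 of the 4 against CE and by all 4 against CO. Of all entries tested, 42.5% and 37.5% passed in this way. Between DU and CE, 1 of the 4 (miR-146a) was differentially expressed and higher in DU, compared with 24.4% of all entries tested. Between DU and CO, they were 2 of the 4 (miR-146a and miR-146b), compared with 20.1%. When a biological coefficient of variation of 0.2 was assumed in edgeR's exact test, 0 of the 4 were called against CE and against CO, where 13.5% and 14% of all entries tested were called with the higher level in DU. The median log2 ratio of the 4 was -0.84 for CE to DU and -1.005 for CO to DU, beside -0.31 and -0.19 over all entries tested. Between CO and CE, none of the 4 reached a fold change of 2, whereas 22.7% of all entries tested met both criteria. By the corrected p-value alone, miR-155 was higher in CO, a direction in which 26.4% of all entries tested passed. The other 3 were higher in CE, a direction in which 25.5% of all entries tested passed.

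A further entry, novel_mir_157, overlapped the sequence of miR-142-5p, which is expressed in all blood cell lineages. This link was made after the data were seen. It had 31558 reads in DU, 9975 in CE, and 8356 in CO, or 1886, 587, and 504 normalized reads. Its log2 ratios were -1.68 (-1.72 to -1.65) for CE to DU and -1.90 (-1.94 to -1.87) for CO to DU, and it was called in both. With it, 2 of 5 entries of the list were called higher in DU than in CE, compared with 24.4% of all entries tested. Against CO, 3 of 5 were called, compared with 20.1%. Per 1000 reads of this entry, oar-miR-150 had 153 reads in DU (149 to 158), 254 in CE (243 to 265), and 347 in CO (332 to 362), so that oar-miR-150 was less enriched in the duodenum than the miR-142-5p entry. Per 1000 reads of the miR-155 entry, it had 477 in DU (461 to 493), 462 in CE (440 to 484), and 394 in CO (377 to 411). The first 2 intervals overlapped, and the CO library was lower. Per 1000 reads of the miR-146a entry, oar-miR-150 was lowest in DU, with 351 (339 to 362), beside 447 in CE (426 to 468) and 600 in CO (572 to 628). oar-miR-181a was lowest in DU against each of these entries. Per 1000 reads of the miR-142-5p entry, it had 558 in DU, 1457 in CE, and 1624 in CO. The miR-146b and miR-342 entries were not used as references, and their log2 ratios gave other orders. Against miR-342 (-0.18 for CE to DU and -0.51 for CO to DU), oar-miR-150 was highest in DU and oar-miR-181a lowest in CE. Against miR-146b (-0.78 and -1.57), oar-miR-150 was highest in CO and oar-miR-181a lowest in DU.

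**Figure D4:**
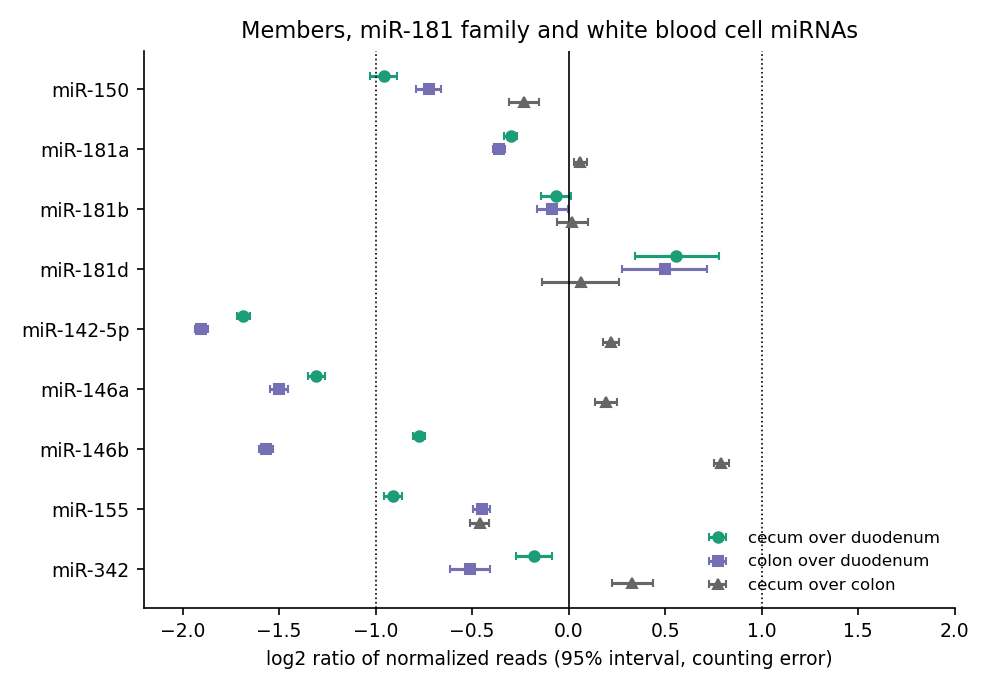
Log2 ratios of normalized reads (x axis) for miR-150, miR-181a, the miR-181b and miR-181d entries, and 5 white blood cell miRNAs (y axis), with circles for CE to DU, squares for CO to DU, and triangles for CE to CO. Error bars are exact 95% intervals for counting error, and dotted lines mark a fold change of 2. The miR-142-5p entry is lowest at -1.68 and -1.90, miR-150 stops short of the line at -0.96, and the miR-181d entry lies on the other side at 0.56 and 0.50.

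The tissue of the libraries was checked against markers. All 8 epithelial miRNAs were linked to entries, with a sum of 142048 normalized reads in DU, 49949 in CE, and 38406 in CO. The entries of miR-192 and miR-429 were listed at 0 in the CO library, so the sum does not compare CO with the other segments. Between DU and CE, the sum was higher in DU. The largest change in the list was that of miR-215, with 55441 normalized reads in DU, 435 in CE, and 4830 in CO. With entries of contained or overlapping sequence added, miR-429 had 237, 189, and 258 normalized reads, while miR-192 was still listed at 0 in CO. Of 7 miRNAs of muscle and stroma, 4 were linked, with a summed level of 278817, 432482, and 401375 normalized reads. Nearly all of this was oar-miR-143, known from smooth muscle cells and fibroblasts and not from epithelium, which had 275281, 429102, and 399239 normalized reads. In the list of muscle and stroma, miR-214 was listed at 0 in the DU and CO libraries under 1 sequence and had 373, 456, and 455 reads in all once overlapping entries were added. Both endothelial miRNAs of the lists had no linked entry in the count files, although the study's supplement gives their sequences. oar-miR-143 was lowest in the duodenum, where both oar-miR-150 and oar-miR-181a were highest. oar-miR-133 was also lowest there (236 normalized reads in DU, 534 in CE, and 294 in CO). oar-miR-199a-3p of the same list went the other way and was highest there (3299, 2819, and 1842). The part of these markers in the results was not tested. In pooled tissue, fewer cells of a type and less of the miRNA per cell cannot be told apart.

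Set against 4 known epithelial miRNAs (oar-miR-194, oar-miR-200a, oar-miR-200b, and oar-miR-200c), the order of the segments changed. Per 1000 reads of these, oar-miR-150 had 10.2 reads in DU (9.87 to 10.4), 7.29 in CE (7.01 to 7.58), and 5.23 in CO (5.04 to 5.42), which put the colon lowest in place of the cecum. oar-miR-181a had 37.0 in DU (36.4 to 37.5), 41.9 in CE (41.2 to 42.6), and 24.5 in CO (24.1 to 24.9), which put the cecum above the duodenum. With the predicted entries of contained sequence for miR-194 and miR-200b added to the reference, oar-miR-150 had 6.21 in DU (6.03 to 6.38), 5.16 in CE (4.96 to 5.36), and 3.86 in CO (3.72 to 4.01), and oar-miR-181a had 22.6, 29.6, and 18.1. The order of the segments was the same for both, and the DU values were over 1.5 times lower. Per 1000 reads of oar-miR-143, oar-miR-150 had 1.05, 0.347, and 0.438 reads and oar-miR-181a had 3.83, 1.99, and 2.05. With oar-miR-143 and these epithelial miRNAs as references, oar-miR-150 was highest in the duodenum. Other miRNAs of the muscle and stroma list were not used as references. oar-miR-199a-3p had log2 ratios of -0.23 for CE to DU and -0.84 for CO to DU. Against it, oar-miR-150 was thus highest in the colon. Against oar-miR-133 (1.18 and 0.32), oar-miR-150 was highest in the duodenum. The epithelial reference left out the predicted entries of miR-192, miR-215, miR-141, and miR-429. The miR-215 entry had log2 ratios of -7.00 for CE to DU and -3.52 for CO to DU, lower than those of oar-miR-150. Against miR-215, oar-miR-150 was thus lowest in the duodenum. miR-192 was also lower for CE to DU (-1.003). miR-141 and, with overlapping entries added, miR-429 had ratios above those of oar-miR-150.

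The library size moved both miRNAs together. Compared with the mapped clean reads, the edgeR TMM library size shifted every log2 ratio by 0.125 for CE to DU and 0.157 for CO to DU. oar-miR-150 then had log2 ratios of -0.83 and -0.57, and oar-miR-181a of -0.18 and -0.21. With the reads of oar-miR-143 left out of the library size, an alternative chosen after the data were seen, the shift was 0.344 and 0.271. oar-miR-150 remained lower in both large intestine libraries, with log2 ratios of -0.61 and -0.46, whereas oar-miR-181a went to 0.043 for CE to DU, the opposite direction, and -0.09 for CO to DU. With the sum of the known miRNAs as the library size, also chosen afterwards, oar-miR-150 passed both criteria between DU and CE with a log2 ratio of -1.21. When edgeR's exact test was run with a coefficient of biological variation assumed at 0.2 or at 0.4, the corrected p-value was 1 for both miRNAs in each of the 3 comparisons.

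**Figure D5:**
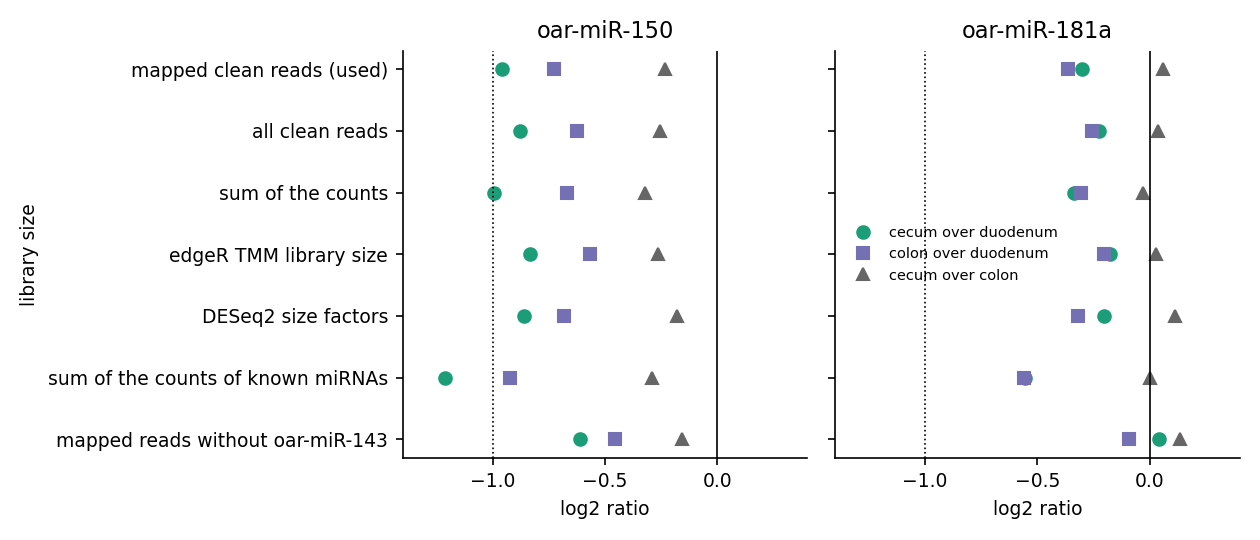
Log2 ratios (x axis) of oar-miR-150 (left) and oar-miR-181a (right) under 7 library sizes (y axis), with circles for CE to DU, squares for CO to DU, and triangles for CE to CO. The solid line marks no difference and the dotted line a fold change of 2. oar-miR-150 stays left of 0 in every comparison shown, while oar-miR-181a crosses it for CE to DU without oar-miR-143 (0.043) and for CE to CO with the sum of the counts (-0.032).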

How the data were processed

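The authors pooled the RNA of 3 ewes per segment, sequenced 1 small RNA library each, and cleaned the reads. They mapped them to the Oar_v4.0 genome with SOAP (the submitters' processing notes name Bowtie), identified known miRNAs with miRBase, and predicted others with miReap. The deposited values are raw read counts per entry, without normalization. Predicted entries with reads had at least 5.

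Here, counts were divided by the mapped clean reads that the study gives, per 1000000. Pairs of libraries were compared with the Audic-Claverie test (2 times the smaller tail, SciPy 1.17.1), Bonferroni-corrected over all entries tested, and a normalized 0 was replaced by 0.01 in log2 ratios. The implementation was tested on simulated data. No spread could be estimated with 1 library per segment. Alternatives used edgeR 4.0.16 and DESeq2 1.42.0. Chosen after the data were seen were links by overlapping sequence, also for known miRNAs, counts among known miRNAs alone, and the library sizes from known miRNAs and without oar-miR-143.

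Named were both members, entries of related sequence, fixed lists for blood, epithelium, muscle and stroma, and endothelium, and the 3 known miRNAs with the most similar ratios. Lists were linked by name, otherwise by the mature sequences of the study's supplement. Members and lists were chosen with earlier results of these data known. Intervals and floors cover counting error only. Positions of the miRNA genes on the authors' build were not used here.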

Additional observations from a re-analysis of the deposited data

How the results depend on the processing

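Each log2 ratio of oar-miR-150 and oar-miR-181a was recomputed under 14 alternatives. Those that changed only the test, the correction, or the filter could not change a ratio. Nor could adding contained sequences, which neither miRNA had, or, for oar-miR-150, adding its seed family. For oar-miR-150, the other library sizes and 1 added read all kept the direction. Its ranges were -1.21 to -0.61 (CE to DU), -0.92 to -0.46 (CO to DU), and -0.32 to -0.16 (CE to CO). Only the sum of the known miRNAs gave a call (-1.21). For oar-miR-181a, CO to DU kept its direction (-0.56 to -0.09), CE to DU reversed to 0.043 without oar-miR-143 in the library size, and CE to CO reversed to -0.032 with the sum of the counts. Levels of oar-miR-150 were 176 (DU), 95.6 (CE), and 114 (CO) per 1000000 clean reads and 334, 168, and 210 per 1000000 counts, and those of oar-miR-181a 641, 549, and 535 and 1218, 964, and 986. Between DU and CE, 127 entries were called, but 76 and 38 when edgeR assumed a coefficient of biological variation of 0.2 and 0.4, 48 with at least 10 reads in both libraries, and 11 among known miRNAs. Between DU and CO, the 123 calls became 87 (0.2), 40 (0.4), 35 (10 reads), and 6 (known). Between CO and CE, the 74 calls became 61 (0.2), 31 (0.4), 15 (10 reads), and 2 (known). Calls in the white blood cell list went from 1 (DU and CE) and 2 (DU and CO) to 0 with either coefficient, and to 2 between DU and CE with overlapping sequences. No paired analysis was possible because there was 1 library per segment. Depth does not limit these miRNAs, whereas the lack of replicates does.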

Other observations

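Among 3 miRNAs of red blood cells, miR-486 was linked to novel_mir_267, with 669 reads in DU, 659 in CE, and 475 in CO, or 39.98, 38.8, and 28.7 normalized reads. Its log2 ratio of CE to DU was -0.04 (corrected p = 1) and that of CO to DU -0.48 (corrected p = 8.83e-06, exact Audic-Claverie test). The entry of miR-144, novel_mir_637, had 27 reads in the DU library and was listed at 0 in the others, and that of miR-451, novel_mir_351, was listed at 0 in all 3.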
